A study of Arabidopsis thaliana with 19 samples.

Results

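The endoplasmic reticulum folding and stress genes described here are 10 of the 33201 loci in an expression table of the Arabidopsis thaliana root tip. They are the chaperones BIP1 (AT5G28540), BIP2 (AT5G42020) and BIP3 (AT1G09080), the lectin chaperones CNX1 (AT5G61790), CRT1 (AT1G56340) and CRT2 (AT1G09210), the disulfide isomerase PDIL1-1 (AT1G21750), the luminal quality control protein SDF2 (AT2G25110), and the transcription factors bZIP60 (AT1G42990) and bZIP28 (AT3G10800). The set was chosen by the FPKM of BIP3, whose course over the fifth day departed from that over the day before, and the other 9 genes were added for their roles in the same compartment. BIP3 values are therefore given as a description with no test, and no gene was tested for a difference between the days. All 10 genes passed the filter of a mean of at least 1 FPKM.

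All libraries came from PET111:GFP seedlings, with no mutant and no treatment, in which GFP labels the mature columella cells at the end of the root cap. Root tips of about 1 mm were turned into protoplasts, and the cells without GFP were sorted, a gate that the study describes as mostly stem cells. Time points ran every 8 h from 4 days (4D) to 6 days (6D), so that 5D 16H is 5 days and 16 h, and seedlings grew under a long day of 16 h light and 8 h dark. The methods state that all roots were harvested at one time of day, so a step of 8 h is a step in seedling age. There were 3 libraries at each of 5 time points and 2 at 4D 8H and 5D 16H, 19 in all. They are described as biological replicates. The gate removes 1 cell type and leaves all others, so the sample is a mixture.

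Values are FPKM, fragments normalised for transcript length and for the number of mapped reads, which allows levels to be compared between genes. Depth, estimated from the steps between low values, was 1.22 M reads in 5D 16H replicate 2 and 10.5 to 38.7 M in the other 18 libraries. Among 9617 well expressed loci (median 10 FPKM or more), 33 were listed at 0 in that library and 1 to 10 in each of the others. An estimated 54.1 reads stood behind BIP3 there and 146 to 977 elsewhere. Both libraries of 5D 16H are given separately below for this reason. Markers used to check the sorted cells were all above 0 in every library. The summed level of 4 stem cell niche markers (WOX5, PLT1, PLT2, AGL42) was 14 to 22 FPKM, that of 4 root cap markers 198 to 337 FPKM, and that of 3 endodermis markers 338 to 993 FPKM.

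Proteins that enter the secretory pathway fold in the endoplasmic reticulum. BiP, an Hsp70 of the lumen, holds unfolded chains, calnexin and calreticulin bind glycoproteins through their sugars, and protein disulfide isomerases form and rearrange disulfide bonds. When unfolded proteins accumulate, the membrane-bound factor bZIP28 is released by proteolysis in the Golgi and the RNA of bZIP60 is spliced by IRE1, and both factors then raise chaperone genes. In Arabidopsis BIP1 and BIP2 are expressed broadly, whereas BIP3 is low in unstressed tissue and is widely used as a reporter of this response. A value for the whole bZIP60 gene does not separate spliced from unspliced RNA, and the activity of bZIP28 is not set by its RNA level alone.

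The endoplasmic reticulum stress response element ERSE, which is CCAAT, 10 bases of any kind and CACG, is the promoter element best known from these genes. It was looked for on both strands in the 300 bases before each annotated start, together with ERSE-II, which is ATTGG, 1 base of any kind and CCACG. The promoter of BIP3 held 2 matches to ERSE and those of PDIL1-1 and CRT1 held 1 each, so that 3 of 10 genes had a match, against 0.805% of 27438 promoters of the same length. ERSE-II matched in none of the 10, and 0.0656% of all promoters held it. The sequences of BIP3 and PDIL1-1 are shown because these genes carry the element and followed different courses. They come from the RefSeq assembly TAIR10.1, run 5′ to 3′ along the gene's strand and end at the base before the start. Capitals mark the matches, which lie on the opposite strand and so begin with CGTG and end with ATTGG.
BIP3, chr1:2931851-2932150, minus strand: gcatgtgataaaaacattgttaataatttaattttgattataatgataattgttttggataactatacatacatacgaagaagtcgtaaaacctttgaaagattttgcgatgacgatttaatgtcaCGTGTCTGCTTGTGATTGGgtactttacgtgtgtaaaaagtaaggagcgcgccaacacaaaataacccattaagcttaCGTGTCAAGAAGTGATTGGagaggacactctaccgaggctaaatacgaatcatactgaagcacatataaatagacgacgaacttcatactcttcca
PDIL1-1, chr1:7645310-7645609, plus strand: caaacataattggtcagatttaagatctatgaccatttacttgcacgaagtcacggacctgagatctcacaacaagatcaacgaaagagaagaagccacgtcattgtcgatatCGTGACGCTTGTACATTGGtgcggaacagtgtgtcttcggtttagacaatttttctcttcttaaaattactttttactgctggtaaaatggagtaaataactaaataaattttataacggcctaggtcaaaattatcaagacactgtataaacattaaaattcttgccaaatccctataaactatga
The matches of BIP3 lie at -174 to -156 and -96 to -78 from the start, and that of PDIL1-1 at -187 to -169. In CRT1 the match CGTGTATTTAACTAATTGG lies at -68 to -50, in a window that also overlaps an exon of the neighbouring locus AT1G56345. No match in the other 7 says only that these letters are absent from the window.

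BIP3 was the lowest of the 10 genes at every time point and had the widest range. It was 9.74, 12.1 and 9.42 FPKM at 4D, 7.24 and 7.22 at 4D 8H, and 7.13, 10.5 and 8.36 at 4D 16H. It was 15.2, 15.3 and 13.2 FPKM at 5D, 11.7, 13.3 and 14.4 at 5D 8H, 28.3 and 23.1 at 5D 16H, and 7.17, 7.94 and 6.91 at 6D. Every library of 5D and 5D 8H except 5D 8H replicate 1 was above all libraries of the first day, and both libraries of 5D 16H were above all the others. The 6D libraries were at or near the levels of 4D 8H and 4D 16H. In order, the means were 25.7 FPKM ± 3.73 (SD, n = 2) at 5D 16H, 14.6 ± 1.21 (n = 3) at 5D, 13.1 ± 1.34 (n = 3) at 5D 8H, 10.4 ± 1.48 (n = 3) at 4D, 8.66 ± 1.70 (n = 3) at 4D 16H, 7.34 ± 0.536 (n = 3) at 6D and 7.23 ± 0.0144 (n = 2) at 4D 8H. Only the highest and its neighbour in this order had ranges that did not meet. The highest mean was 3.56 times the lowest, against 1.30 to 2.05 times in the other 9 genes.

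**Figure D1:**
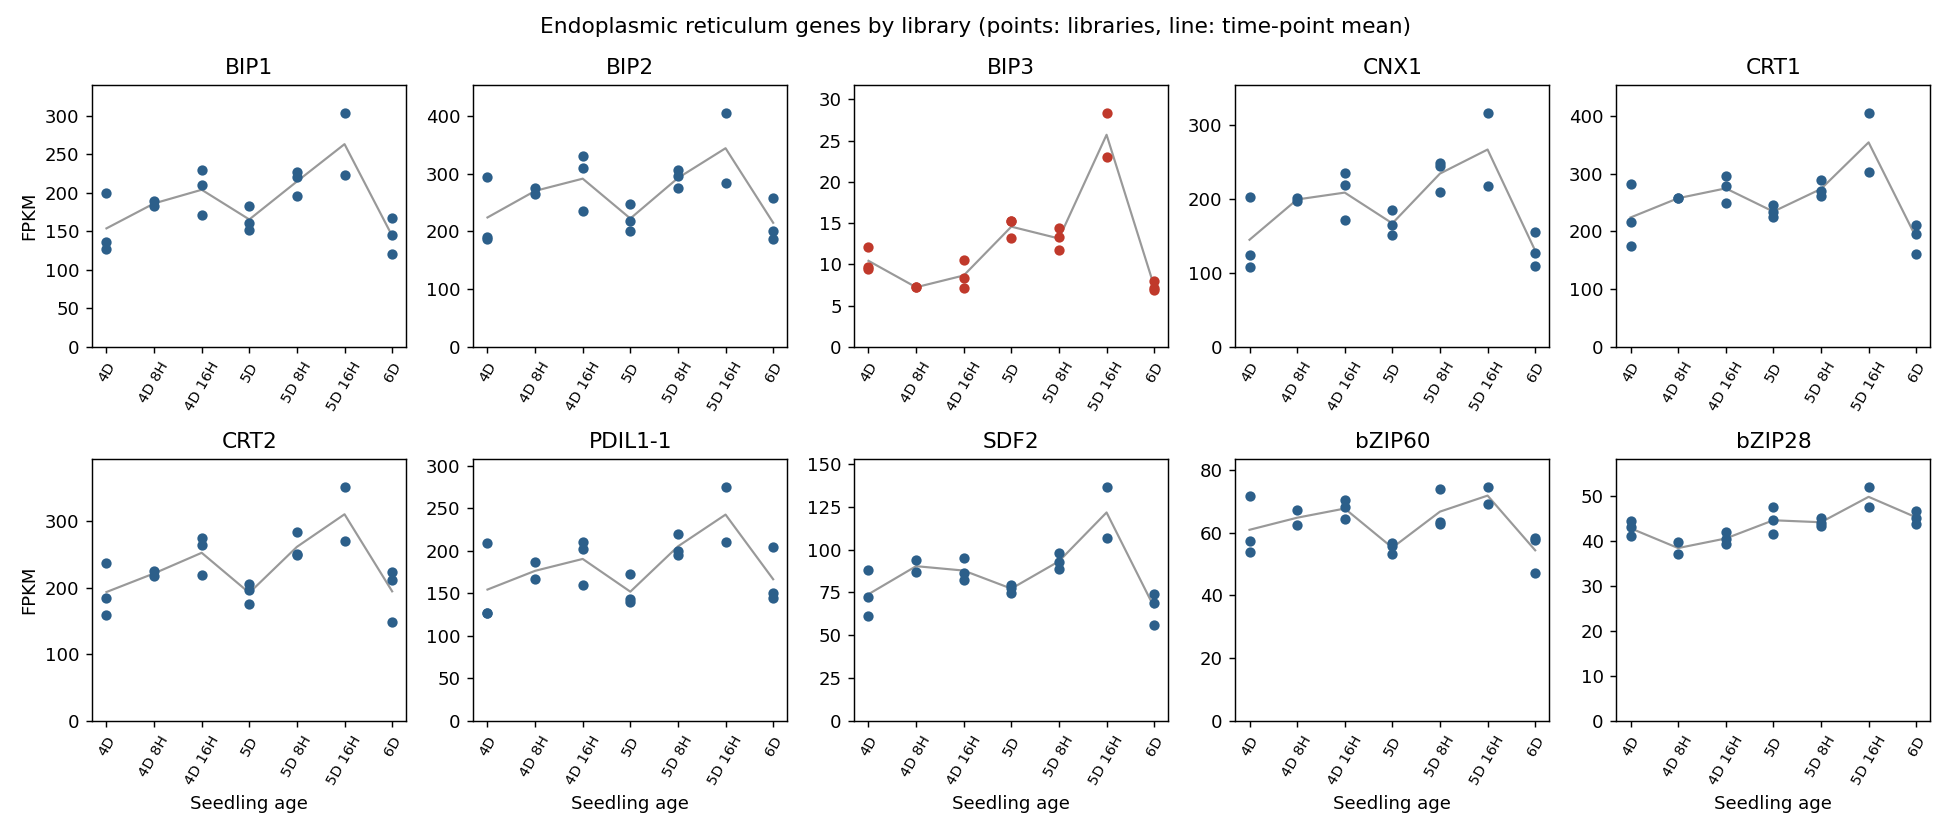
FPKM of each gene (vertical axis, from 0, with its own scale) by seedling age (horizontal axis); points are the 19 libraries and the line joins the time-point means. Every gene had its highest mean at 5D 16H, and BIP3 (red) was the only one of the 10 whose libraries at 5D all lay above those at 4D 16H, with means of 14.6 and 8.66 FPKM.

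The mean of BIP3 went in a different direction from most of the set at 3 of the 6 steps, and in the same direction at the other 3, the last among them. From 4D 16H to 5D its mean went to 1.68 times, with all 3 libraries of 5D above those of 4D 16H, and from 5D 16H to 6D it went to 0.285 times, with all 3 libraries of 6D below. BIP1, BIP2, CNX1, CRT1, CRT2, PDIL1-1, SDF2 and bZIP60 had ratios of 0.762 to 0.880 at the first of these steps and of 0.487 to 0.757 at the second. The ratios of bZIP28 were 1.1 and 0.908. At 5D to 5D 8H the ratio of BIP3 was 0.901 and that of bZIP28 0.990, against 1.17 to 1.40 in the other 8 genes. BIP3 and bZIP28 also had lower means at 4D 8H than at 4D, with ratios of 0.693 and 0.897, while the other 8 genes had ratios of 1.06 to 1.38. These values are a description, since the difference between the days chose the set.

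**Figure D2:**
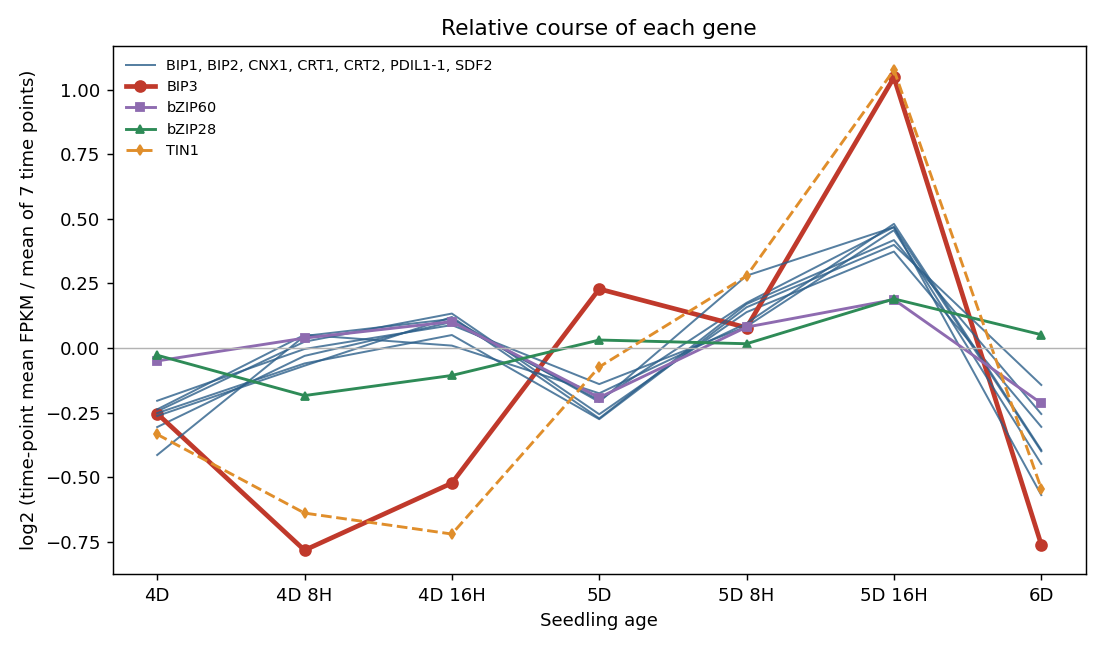
Time-point mean of each gene relative to the mean of its 7 time points (vertical axis, log2) by seedling age; BIP3 is red, bZIP60 purple, bZIP28 green, the 7 chaperone and isomerase genes blue, and TIN1, a stress-induced gene of a wider list, dashed orange. The blue lines run close together, dip at 5D and peak at 5D 16H, whereas BIP3 is lowest at 4D 8H and already raised at 5D.

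The composition of the BiP transcripts moved with this. BIP3 was 2.16% to 3.57% of the FPKM of BIP2 in the 5 libraries of 4D 8H and 4D 16H. It was 6.06% to 7.57% at 5D, 3.95% to 4.86% at 5D 8H, 7.0% and 8.16% at 5D 16H, and 3.09% to 3.71% at 6D, so that it was lower at 5D 8H than at the time points on either side. At 4D the 3 libraries spread from 3.30% to 6.49%, so that 4D met both 4D 16H and 5D. BIP1 stayed between 64.7% and 78.8% of BIP2 in all 19 libraries. BIP1 and BIP2 share 238 windows of 100 bases, 8.70% of those of BIP1 and 8.43% of those of BIP2, in which a read of that length cannot be assigned to 1 of them. No other pair of the 10 genes shares such a window.

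Among the general chaperones, BIP2 and CRT1 had the highest levels. BIP2 was 405 and 283 FPKM at 5D 16H and 201, 257 and 186 at 6D. CRT1, a calreticulin of the lumen, was 405 and 303 FPKM at 5D 16H and 195, 212 and 160 at 6D. BIP1 was 304 and 223 FPKM at 5D 16H and 145, 167 and 121 at 6D. In all 3 genes both libraries of 5D 16H lay above every library of 6D, and replicate 1 of 5D 16H was the highest of all 19 libraries.

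CNX1, the membrane-bound calnexin, was 316 and 217 FPKM at 5D 16H and 126, 155 and 109 at 6D. SDF2, which takes part in the quality control of glycoproteins, was 136 and 107 FPKM at 5D 16H and 73.8, 69.1 and 55.9 at 6D. CRT2, the second calreticulin, was 351 and 269 FPKM at 5D 16H and 211, 224 and 149 at 6D. The groups were apart in each, and for SDF2 and CRT1 both libraries of 5D 16H were also above all 17 other libraries. PDIL1-1, an isomerase of the lumen, was 275 and 210 FPKM at 5D 16H and 150, 205 and 144 at 6D, which leaves a narrow gap between 210 and 205. Over the 9 genes the groups were apart and lower at 6D in all 9, as in 17.5% of all loci.

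The transcription factors varied least. bZIP60 was 69.0 and 74.5 FPKM at 5D 16H and 57.8, 47.0 and 58.2 at 6D, and over all libraries it ran from 47.0 to 74.5 FPKM. bZIP28 was 47.6 and 52 FPKM at 5D 16H and 43.8, 45.2 and 46.7 at 6D, and over all libraries it ran from 37.1 to 52 FPKM. At 5D bZIP60 was 56.6, 53.2 and 55.8 FPKM, below all libraries of 4D 16H (64.4, 70.4 and 68.1), the time at which BIP3 was above them.

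All 9 genes other than BIP3 had their highest time-point mean at 5D 16H, as 17.9% of the 18087 loci tested did. With 5D 16H replicate 1 alone it was 9 of 9 genes, against 18.4% of loci. With replicate 2 alone it was 7 of 9, against 23.1%, and BIP2 and CNX1 then peaked elsewhere. The lowest mean was at 6D in 6 of the 9, at 5D in CRT2 and PDIL1-1, and at 4D 8H in bZIP28. Ranges of neighbouring time points met in most places of the order. The highest mean was apart from the next in CRT1, SDF2 and bZIP28 of the 9.

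Whether each gene changed over the time course was tested with limma on log2(FPKM + 1), with p adjusted by the Benjamini-Hochberg method over the 18087 loci and a threshold of 0.05. The moderated F test over the 7 time points passed for 5 of the 9 genes, against 29.7% of all loci. These were SDF2 (adjusted p = 0.00684), CNX1 (0.0134), CRT1 (0.0145), BIP1 (0.0195) and CRT2 (0.0295). The adjusted p was 0.0538 for bZIP28, 0.0659 for bZIP60, 0.0669 for BIP2 and 0.0964 for PDIL1-1. Without 4D replicate 1, the highest of the 3 libraries of 4D for 8 of these genes, 8 of 9 passed, against 29.5% of all loci. That was the highest count on leaving out 1 library, and the lowest was below the 5 of the main fit.

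From 5D 16H to 6D, 7 of the 9 genes fell and none rose, where 12.3% of all loci were called, 6.58% lower and 5.72% higher. CNX1 fell by 1.02 on the log2(FPKM + 1) scale (SE 0.228, limma adjusted p = 0.0119) and CRT1 fell by 0.90 (SE 0.167, limma adjusted p = 0.00503). SDF2 fell by 0.86 (SE 0.145, limma adjusted p = 0.00287) and BIP1 fell by 0.86 (SE 0.190, limma adjusted p = 0.0115). The changes of CRT2, BIP2 and bZIP60 were -0.68, -0.67 and -0.40, with limma adjusted p-values of 0.0251, 0.0443 and 0.0434. PDIL1-1 differed by -0.54 (95% interval -0.98 to -0.11, limma adjusted p = 0.0936) and bZIP28 by -0.13 (95% interval -0.31 to 0.04, limma adjusted p = 0.284). The median of the 9 was -0.68, and that of all loci was 0.02.

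This count rests on the 2 libraries of 5D 16H. Without replicate 1 it was 3 of 9 genes, against 25.7% of all loci, and without the shallow replicate 2 it was 5 of 9, against 3.34%. With library weights, or with only these 2 time points in the fit, it was 0 of 9, and 0.061% and 0.033% of all loci were called. Markers of other cells moved at the same step. The 3 endodermis markers summed to 617 and 841 FPKM at 5D 16H and to 338 to 404 at 6D, and 3 of 3 fell by limma. The 5 epidermis and root hair markers summed to 593 and 667 FPKM and then 406 to 497, with 0 lower and 1 higher. The 4 root cap markers summed to 228 and 325 FPKM and then 211 to 274, with 0 called. The 4 stem cell niche markers summed to 15.9 and 18.7 FPKM and then 19.5 to 21.8, with 2 higher, and the 2 shoot or leaf markers to 4.17 and 5.85 FPKM and then 0.872 to 2.64, with 1 lower of 1 tested. Their part in the result was not tested, and in such a mixture fewer cells of a type and less RNA per cell cannot be told apart.

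**Figure D3:**
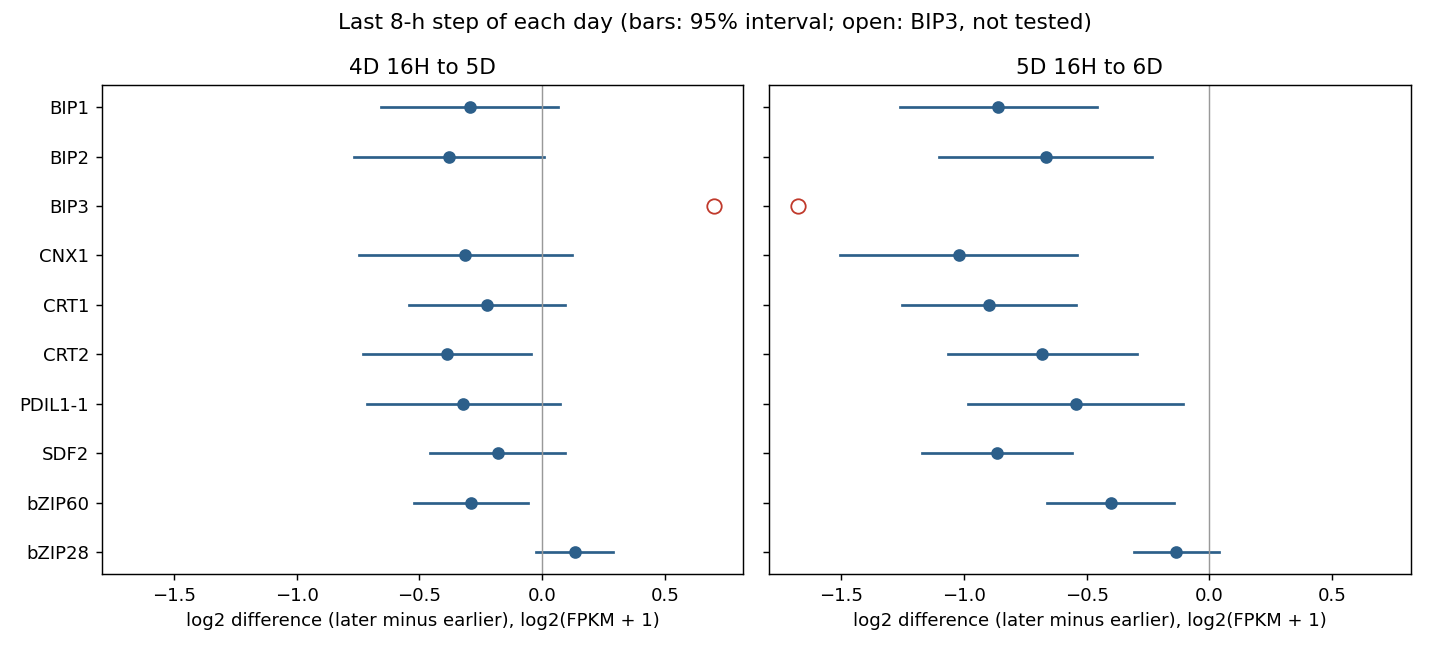
Difference between the time-point means on the log2(FPKM + 1) scale, later minus earlier (horizontal axis), for each gene over the last step of each day; filled points with bars are estimates with 95% intervals from limma, and the open red points are BIP3, which was not tested. At 5D 16H to 6D all 10 estimates lie below 0, and at 4D 16H to 5D BIP3 and bZIP28 lie above 0 and the other 8 below.

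No gene of the 9 passed at the other steps or from 4D to 6D. At 4D 16H to 5D 0 of 9 passed by limma and 2 had an unadjusted p under 0.05, where 10.7% and 28% of all loci did. At 5D to 5D 8H 0 of 9 passed and 6 had an unadjusted p under 0.05, where 0.0498% and 10.9% of all loci did. The groups of that step were apart and higher at 5D 8H in all except bZIP28, that is in 8 of 9, against 17.2% of all loci. CNX1, for example, was 150, 185 and 165 FPKM at 5D and 248, 209 and 244 at 5D 8H. At 5D 8H to 5D 16H 0 of 9 passed by limma and 2 had an unadjusted p under 0.05, where 6.96% and 25.8% of all loci did. At 4D to 4D 8H the same counts were 0 and 1, against 0.133% and 14.4% of loci. Both counts were 0 at 4D 8H to 4D 16H, against 0% and 4.31% of loci, and at 4D to 6D, against 7.59% and 21.1%. Library weights brought 9 of 9 past the threshold at 4D 16H to 5D, where 39.2% of all loci then passed.

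The other genes of the pathway were taken from 5 lists with 59 genes, of which 58 passed the filter and bZIP49 did not. The F test passed for 22 of the 58, where 29.7% of all loci passed, namely 5 of 10 chaperones and co-chaperones, 7 of 13 genes of disulfide formation, 5 of 12 of degradation, 3 of 11 sensors and transcription factors, and 2 of 12 of translocation and N-glycosylation. The highest mean was at 5D 16H in 8, 6, 9, 5 and 1 genes of these lists, 29 of 58 in all, against 17.9% of all loci. From 5D 16H to 6D 18 of the 58 fell and 6 rose, against 6.58% and 5.72% of all loci, with a median of -0.14 on the log2(FPKM + 1) scale against 0.02 over all loci. Without 5D 16H replicate 2 the 24 calls became 13, where 3.34% of all loci were called, and with library weights or only these time points they became 0.

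Chaperones and co-chaperones fell in 6 of 10 genes at this step and rose in 0, against 6.58% and 5.72% of all loci, with a median of -0.68 that is close to that of the 9. HSP70-17, an Hsp70 of the lumen, was 171 and 136 FPKM at 5D 16H and 63.4, 78.4 and 63 at 6D, a log2 change of -1.15 (SE 0.172, limma adjusted p = 0.00168). ERDJ3A, a J-domain partner of BiP, was 59.3 and 55.2 FPKM and then 22.6, 22.9 and 29.4, a change of -1.18 (SE 0.242, limma adjusted p = 0.00789). Both libraries of 5D 16H were above all others in both genes. ERDJ3B, which works with SDF2, P58IPK, another J-domain protein, and SHD, the Hsp90 of the lumen, passed the F test with adjusted p-values of 0.00337, 0.0154 and 0.0338 in limma.

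Disulfide formation divided. PDIL1-2, an isomerase of the same group as PDIL1-1, was 176 and 146 FPKM at 5D 16H and 54.9, 65.1 and 59.5 at 6D, a log2 change of -1.41 (SE 0.214, limma adjusted p = 0.00178). ERO1, which supplies the oxidising equivalents, was 14.1 and 16.2 FPKM and then 6.94, 6.22 and 6.71, a change of -1.08 (SE 0.147, limma adjusted p = 0.0012). It was also the 1 gene of 58 called from 4D to 6D, with a change of -0.56 (SE 0.131, limma adjusted p = 0.017). This 1 call is no larger a share than the 7.59% of all loci called there. In the other direction 3 genes of this list rose at the step, PDIL1-5 and PDIL5-4 among them, by 0.59 and 0.49, and 5 fell, of 13 tested, against 5.72% and 6.58% of all loci. PDIL5-4 was 34.9 and, in the shallow library, 25.8 FPKM at 5D 16H, and 43.6, 48.6 and 36.0 at 6D. The call was lost in 12 of 29 alternative settings for PDIL1-5 and in 5 for PDIL5-4. For PDIL1-2 and for ERO1 it was lost in 2 of 29.

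In the list of degradation 4 of 12 genes fell and 0 rose, against 6.58% and 5.72% of all loci. HRD1B, a ubiquitin ligase of the membrane, was 66.4 and 67.5 FPKM at 5D 16H and 36.4, 38.4 and 41.9 at 6D, a log2 change of -0.77 (SE 0.161, limma adjusted p = 0.00855). OS9, a lectin that selects glycoproteins for degradation, was 47.8 and 46.6 FPKM and then 28.0, 30.8 and 27.5, a change of -0.70 (SE 0.127, limma adjusted p = 0.00426). The 2 libraries of 5D 16H lay close together in both genes. In translocation and N-glycosylation SEC61B, of the translocation channel, fell by 0.41, while DAD1 and DAD2, of the oligosaccharyltransferase, rose by 0.77 and 0.55. DAD1 was 46.9 and 81.6 FPKM in the 2 libraries of 5D 16H.

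Among sensors and transcription factors TIN1, a gene induced by stress of this compartment, was 30.0 and 39.8 FPKM at 5D 16H and 9.33, 9.35 and 15.4 at 6D, a log2 change of -1.56 (SE 0.315, limma adjusted p = 0.00713). NAC089, a membrane-bound factor, was 5.09 and 8.26 FPKM at 5D 16H, above all other libraries. It rose by 1.07 from 5D 8H (SE 0.256, limma adjusted p = 0.0251) and then fell by 1.01 (SE 0.256, limma adjusted p = 0.0204). NAC089 was low, with a median of 2.78 FPKM over all libraries, and the 8.26 came from the shallow library. Its F call was lost in 17 of 27 alternative settings, and the calls of the rise and the fall in 6 and 4 of 28. IRE1A, a kinase and nuclease of the IRE1 type, which splices bZIP60 RNA, was 17.7, 20.1 and 19.7 FPKM at 4D 16H. It was 26.1, 26.4 and 27.4 FPKM at 5D, the step at which BIP3 also was higher. Its change of 0.45 (SE 0.0971) had a limma adjusted p of 0.00965, and it was the 1 gene of the 58 called higher there. BAG7, PDIL1-4 and PSL4 were called lower, by 0.33, 0.31 and 0.45. These 4 calls of 58 are no larger a share than the 10.7% of all loci called at that step. Of the 58 estimates 16 were above 0 and 42 below. TIN1 went to 1.57 times and IRE1B, the paralogue of IRE1A, to 1.24 times, with all libraries of 5D above those of 4D 16H, and neither was called. From 5D 16H to 6D IRE1B rose by 0.43 (SE 0.134, limma adjusted p = 0.0478) with 5D 16H replicate 2 included, and its adjusted p was 0.532 without that library.

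**Figure D4:**
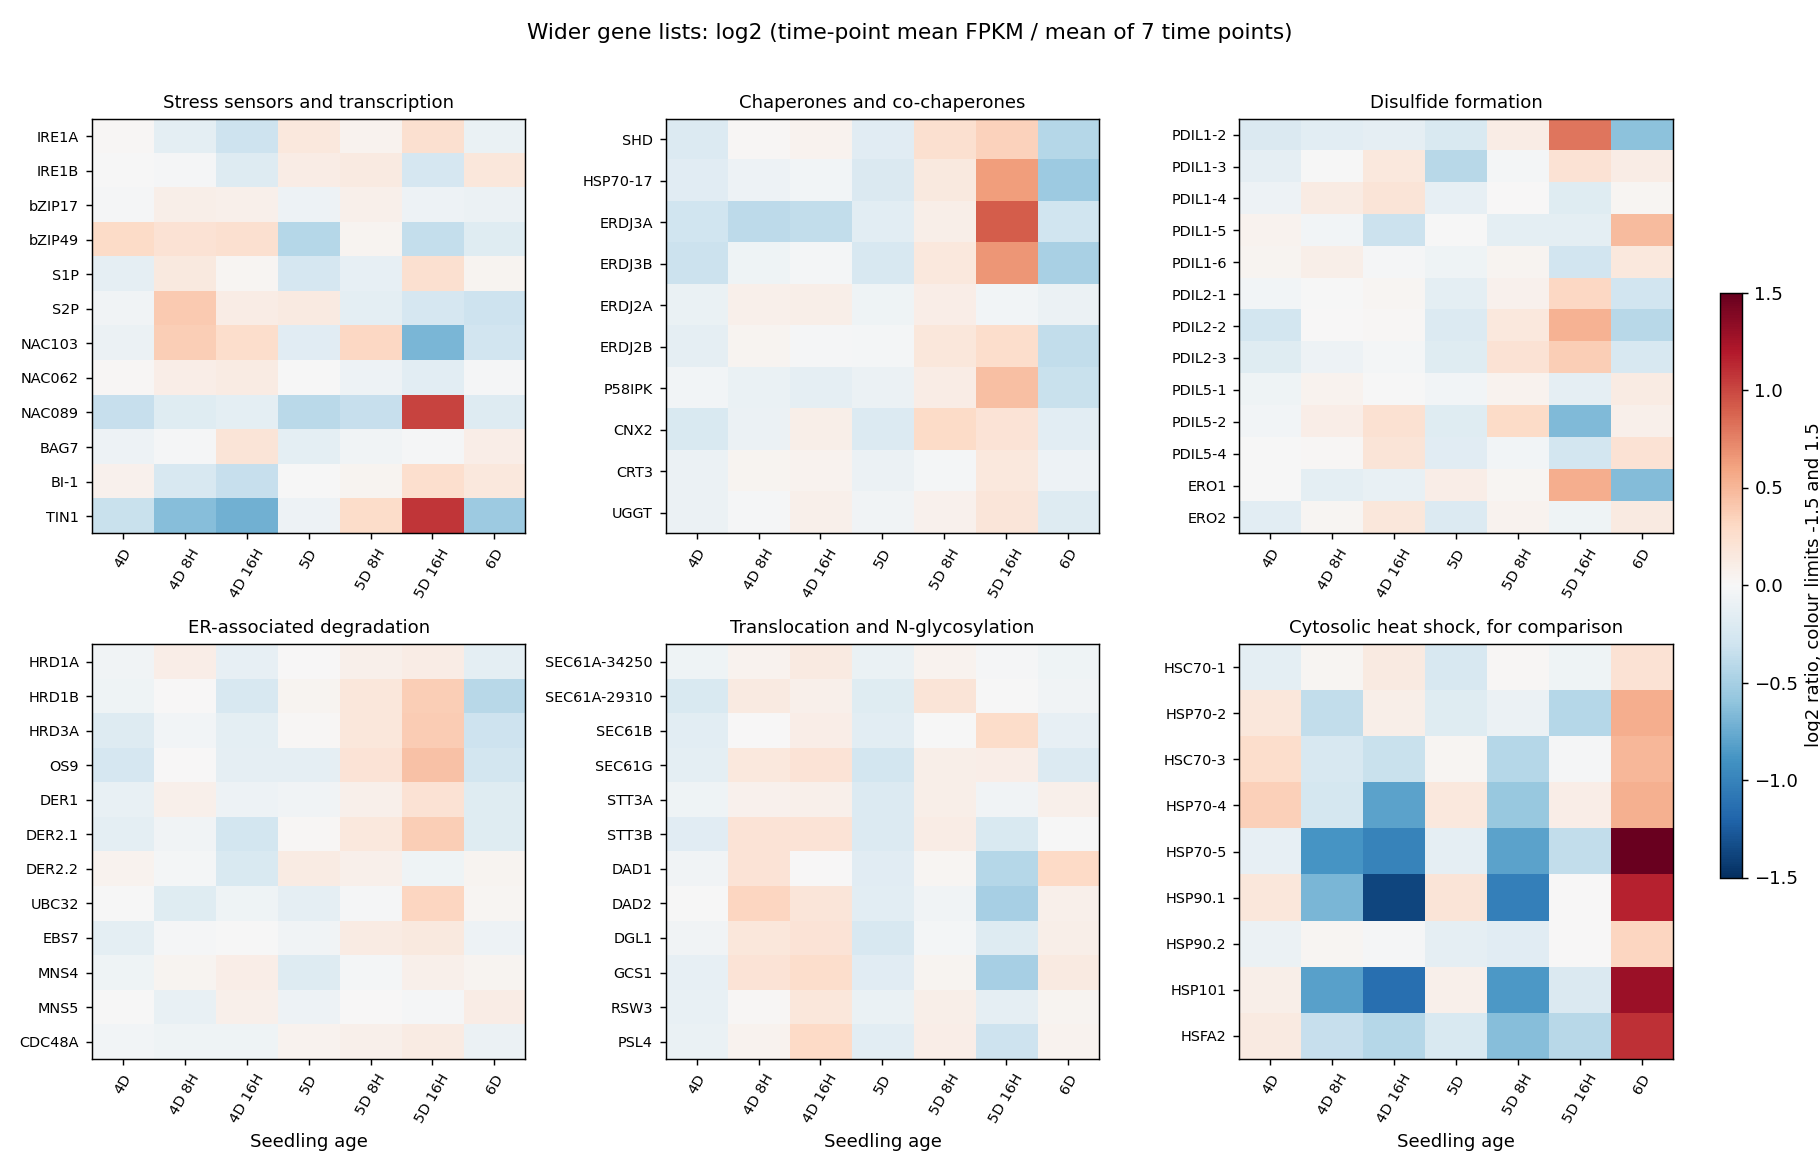
Time-point mean of each gene relative to the mean of its 7 time points (colour, log2, red higher and blue lower, with colours at their limit beyond 1.5) by seedling age for the 5 wider lists and for 9 cytosolic heat shock genes. The highest mean is at 5D 16H in 8 of 10 chaperones, 9 of 12 genes of degradation and 1 of 12 of translocation and N-glycosylation, and in 0 of 9 heat shock genes, which are red at 6D.

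Cytosolic heat shock genes, chaperones outside the compartment, had their highest mean at 5D 16H in 0 of 9, against 17.9% of all loci. From 5D 16H to 6D 4 of 9 rose and 0 fell, against 5.72% and 6.58% of all loci. At 5D 8H to 5D 16H, where 9 of 9 estimates of the set were above 0 with a median of 0.23, 7 of 9 of theirs were above 0 with a median of 0.43, and 0 were called in either. HSP101, the disaggregase, was 27.0 and 30.6 FPKM at 5D 16H and 79.5, 70.4 and 94.2 at 6D, a log2 change of 1.46 (SE 0.448, limma adjusted p = 0.0447). HSP70-5 was 16.6 and 12.7 FPKM and then 56.3, 42.7 and 58.8, a change of 1.78 (SE 0.471, limma adjusted p = 0.0245). These calls too rest on the 2 libraries of 5D 16H. HSP101 lost its call in 14 of 29 alternative settings and HSP70-5 in 5. With library weights their limma adjusted p-values were 0.407 and 0.298. From 4D to 6D, which does not compare 5D 16H, 3 of 9 were called higher and 0 lower, against 7.59% of all loci called. There HSP70-5 rose by 1.74 (limma adjusted p = 0.0193) and HSP101 by 1.36 (limma adjusted p = 0.0488). Those calls were lost in 5 and 16 of 29 alternative settings. The F test passed for 7 of 9, against 29.7% of all loci. At 4D 16H to 5D, where BIP3 was higher, 1 of the 9 was called higher and 1 lower, against 10.7% of all loci called in either direction. HSP90.1, an inducible Hsp90, rose by 1.49 (SE 0.445, limma adjusted p = 0.0427), and HSC70-1, a constitutive Hsp70, fell by 0.39 (SE 0.103, limma adjusted p = 0.0264). These 2 calls were lost in 9 and 5 of 29 alternative settings.

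Of the wider lists, 8 of 59 genes held an ERSE match in the same window, against 0.747% of 27438 promoters for ERSE alone. Of these, 4 were chaperones or co-chaperones, namely SHD, HSP70-17, P58IPK and UGGT. PDIL1-2, HRD1B, HRD3A and BI-1 held the others. Among the genes named above for a fall from 5D 16H to 6D, HSP70-17, PDIL1-2 and HRD1B held a match. TIN1, NAC089, ERDJ3A, ERO1, OS9 and SEC61B, named for the same fall, held none.

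The 5 loci most like BIP3 by the measure used here were not members of the set. By Pearson's r of log2(FPKM + 1) over the 19 libraries, which share depth and cell mixture with BIP3, the 5 closest were AT4G36610 (0.894), IBR10 (AT4G14430, 0.871), AT3G17020 (0.850), TIN1 (0.846) and PMEPCRF (AT5G53370, 0.837). The order depends on the measure. By Spearman's rho over the same libraries these 5 ranked 14, 56, 19, 17 and 36 among all loci, and by Pearson's r over the 7 time-point means 20, 15, 2, 25 and 8. AT4G36610 had a mean of 7.47 FPKM at 5D 16H and 1.07 at 6D, and IBR10 one of 24.8 at 4D 8H and 44.2 at 5D 16H. Of the wider lists P58IPK (0.799), ERDJ3A (0.795) and ERO1 (0.784) came next after TIN1. The other 9 genes of the set ranged from 0.224 for bZIP60 and 0.364 for BIP2 to 0.609 for SDF2 and 0.614 for bZIP28.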

How the data were processed

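RNA of 19 libraries at 7 time points was sequenced as single-end reads of 100 bases. The authors deposited FPKM values, obtained per the study's methods with Bowtie, the Tuxedo tools and Rsubread, and the submitters' processing notes name TopHat, Cufflinks and the build TAIR10, with versions not given in the sources used here. The labels name a stranded mRNA kit and the methods a low-input kit. FPKM holds no counts, so depth was only estimated, assuming fragments of 200 bases, and no count test was run.

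Groups and replicate numbers came from the sample titles. The 18087 of 33201 loci whose mean reached 1 FPKM were fitted as log2(FPKM + 1), a scale on which the pseudocount understates changes of low genes, with limma 3.58.1 in R 4.3.3, 1 mean per time point and variances with a trend. F tests, 6 steps and 4D to 6D were adjusted by the Benjamini-Hochberg method (threshold 0.05), and the procedure was tested on simulated data. Symbols and promoters came from RefSeq TAIR10.1, whose locus tags matched 32489 loci. A first motif scan also held short motifs, which were dropped after their matches were seen.

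Members and lists were chosen with earlier results of these data known. Named genes were all members, per wider list up to 5 with the smallest F p and, per step and direction, up to 2 with the largest change among genes past the threshold with groups apart, and the 5 loci most like BIP3. ERDJ3A, P58IPK and ERO1 beside these 5, and genes with promoter matches, were named for those values. Alternatives were a pseudocount of 0.1, no filter or one of 5 FPKM, upper quartile scaling, quantile normalization, a replicate block, no variance trend, library weights, zeros at high loci as missing, fits of only the time points compared, and leaving out each library. Using each 5D 16H library alone was added after seeing the data.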

Additional observations from a re-analysis of the deposited data

Results flagged for a closer look

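BIP3 went to 1.68 times from 4D 16H to 5D and to 0.285 times from 5D 16H to 6D, with every library of the later time point above the earlier ones at the first step and below them at the second. The difference between these steps was not tested, and it is the one that chose the set.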

How the results depend on the processing

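Of 68 results for single genes, 1935 values under alternatives included 1619 on the same side of the threshold, 302 that lost the call and 14 that gained it. In 0 the direction changed, which only results for steps could show, since an F test has no direction. For the 9 genes, library weights gave 9 past the F test (5 in the main fit), 9 at 4D 16H to 5D (0), 1 at 5D to 5D 8H (0) and 0 at 5D 16H to 6D (7). Fits of only the time points compared gave 1 at 4D 16H to 5D and 0 at 5D 16H to 6D. In these fits 12.4% and 0.033% of all loci were called. For the wider lists, library weights gave 35 past the F test (22), 28 at 4D 16H to 5D (4), 6 at 5D to 5D 8H (0), 0 at 5D 8H to 5D 16H (2) and 0 at 5D 16H to 6D (24). With library weights 52.043% of all loci passed the F test. At 5D to 5D 8H 4.91% of all loci were called with these weights, and 0% at 5D 8H to 5D 16H. The shares with library weights at 4D 16H to 5D and 5D 16H to 6D are those above. Only the time points compared gave 7, 0 and 0 at 4D 16H to 5D, 5D 8H to 5D 16H and 5D 16H to 6D, and 0 at 4D to 6D (1). Of all loci 12.4%, 0.006%, 0.033% and 0.072% were called in these fits. At 4D 16H to 5D no filter, upper quartile scaling and no variance trend each gave 2 (4), and at 5D 8H to 5D 16H the filter of 5 FPKM gave 1 (2). In that order these settings called 5.44%, 11.1%, 9.52% and 6.96% of all loci. The causes were not tested.

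Leaving out 1 library gave 4 to 8 of the 9 genes past the F test, 3 to 8 at 5D 16H to 6D and 0 at every other step. For the wider lists it gave 14 to 25 past the F test, 1 to 8 at 4D 16H to 5D, 0 to 9 at 5D 8H to 5D 16H, 13 to 25 at 5D 16H to 6D and 0 to 6 at 4D to 6D. For the 9 genes the 8 calls of both tests came without 4D replicate 1, where 29.5% and 11.9% of all loci were called. In the wider lists the lowest F count came without 5D 8H replicate 3, against 22.7% of all loci. The 25 calls at 5D 16H to 6D came without any 1 of the 4D libraries, against 11.9% to 12.8%. Dropping a library of 5D 16H left 1 there. Either drop gave the most calls at 4D 16H to 5D, and dropping replicate 1 the most at 5D 8H to 5D 16H. The shares of all loci rose with them. The fewest at 5D 8H to 5D 16H came without 5D 16H replicate 2, where the share fell, or without 5D 8H replicate 1 or 3. The last 2 fits called 1.4% and 1.5% of all loci. The 6 calls at 4D to 6D came without 4D replicate 3, against 10.2%.

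Same-numbered libraries of different time points did not deviate together (52 pairs, r from -0.22 to 0.24, 10 over 0.1), and 8 of 19 libraries correlated best with their own number. With the replicate block 5 of the 9 genes passed the F test and 5 the step from 5D 16H to 6D, against 28.5% and 9.77% of all loci. Of the wider lists 4 genes passed at 5D 8H to 5D 16H, against 8.81% of all loci. Depth limits 5D 16H most, where 1 of 2 libraries had an estimated 1.22 M reads.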
